A study of Homo sapiens with 10 samples.

Results

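The genes described here are 40 genes of the hypoxia response and of glycolysis, chosen by name and grouped by role: 17 glycolytic enzymes, 4 genes of sugar and lactate transport and of fructose 2,6-bisphosphate turnover, 12 signaling, secreted and stress genes, 4 genes of oxygen sensing and 3 of collagen modification. The list was chosen with earlier results of these data known. Its counts beside the shares of all genes are therefore a description and not a test. For each gene, the probe set assigned to that gene alone with the highest mean over all arrays was used. This gave values for 37 of the 40 genes, among 11963 genes measured in all, and all 37 reached a log2 level of 6 on at least 1 array, as did 10911 genes of the whole array. SLC16A3, CA9 and ANKRD37 had no such probe set.

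Total RNA of clonal T47D human breast cancer lines was hybridised to 10 Affymetrix human gene expression arrays, 1 for each condition. The parental line was T47D-Y, which lacks the progesterone receptor (PR), and each line carried an inducible vector: an empty one (iEV, PR null), one for wild-type PR-B (iWT), or one for PR-B with the K388R mutation, which cannot be modified by SUMO (iKR). AP21967, a small molecule that joins the parts of the transcription factor that drives the vector, or its ethanol vehicle was given for 2 days to cells that were also serum starved, and R5020, a synthetic progestin, or ethanol for 6 hours. The iWT and iKR lines were measured in all 4 combinations of AP21967 and R5020, and iEV with and without AP21967 but never with R5020. Each line was a clonal derivative, so clone and vector cannot be told apart. Each array reads the RNA of a whole culture, so fewer responding cells and less RNA per cell cannot be told apart either. No array was repeated, and the tests below measure the spread between arrays of different conditions.

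Cells meet low oxygen through the transcription factors HIF-1 and HIF-2, whose alpha subunits (HIF1A and EPAS1) are marked for destruction by the prolyl hydroxylases EGLN1 and EGLN3 while oxygen is plentiful. When they accumulate, they bind short DNA elements with an ACGTG or GCGTG core and raise glucose uptake, nearly every enzyme of glycolysis, blood vessel growth factors and collagen-modifying enzymes. Many of these genes also answer other signals, steroid hormones among them, and breast cancer cells often express them in normal oxygen.

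PGR, the gene of the receptor, lay at log2 6.25 and 6.17 on the iEV arrays, between 11.12 and 11.89 on the iWT arrays and between 10.65 and 12.08 on the iKR arrays. Its RNA level was thus high in iWT and iKR also without AP21967 (11.12 and 10.65 in vehicle). The arrays do not read receptor protein. The paper, which measured the protein by western blot, describes receptor expression in these lines as depending on AP21967 alone. All 9 luminal breast epithelial markers lay between log2 8.68 and 15.04 on every array. Of the markers of other cells, all 3 measured leukocyte genes, 2 of 4 fibroblast genes and 2 of 3 endothelial genes reached log2 6 on some array, with levels of 6.02 to 8.29, 4.08 to 9.77 and 5.05 to 7.72, and their part in the results was not tested.

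With AP21967, R5020 raised a small group of genes past 1.5 fold in both lines. They were NDRG1, DDIT4 and AK4 of the signaling, secreted and stress genes, PFKFB3 of fructose 2,6-bisphosphate turnover and P4HA2 of collagen modification. Of the 17 enzymes of glycolysis, 16 stayed inside 1.5 fold in both lines. So did most genes tested, of which 3.35% were past it upward and 3.47% downward in at least 1 line. In iWT, 6 of the 37 genes were past 1.5 fold higher (1.59% of all genes tested) and 0 lower (1.02%). In iKR, 7 were past 1.5 fold higher (3.02%) and 1 lower (3.16%). Taken over both lines, 8 genes were higher in at least 1 line (3.35%) and 1 was lower (3.47%). Without AP21967, 0 of the 37 passed 1.5 fold in either direction in iWT (0.0917% of all genes were higher and 0.0183% lower) or in iKR (0.0733% and 0.00917%). These values compare single arrays and carry no test.

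A limma fit over the 8 iWT and iKR arrays treated the wild-type and mutant lines as repeats of 1 common answer to R5020 and asked whether that answer differed with and without AP21967. In this inducer-dependent response 5 of the 37 genes were higher (1.41% of 10911 genes), namely NDRG1, PFKFB3, DDIT4, P4HA2 and AK4, and 1 was lower (0.687%), BHLHE40. At an unadjusted p under 0.05 there were 8 higher (7.76% of all genes) and 4 lower (7%). The R5020 effect with AP21967 taken alone added PFKFB4, HIF1A and EGLN1, which made 8 higher (5.23%) and 1 lower (6.25%), and the effect without AP21967 held 0 genes of the 37 in limma, either adjusted (0.00917% of all genes, in either direction) or at an unadjusted p under 0.05. The fit left 2 residual degrees of freedom: without either iKR array lacking AP21967 it called 3 genes of the 37, and without either iWT array with AP21967 it called 10.

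**Figure D1:**
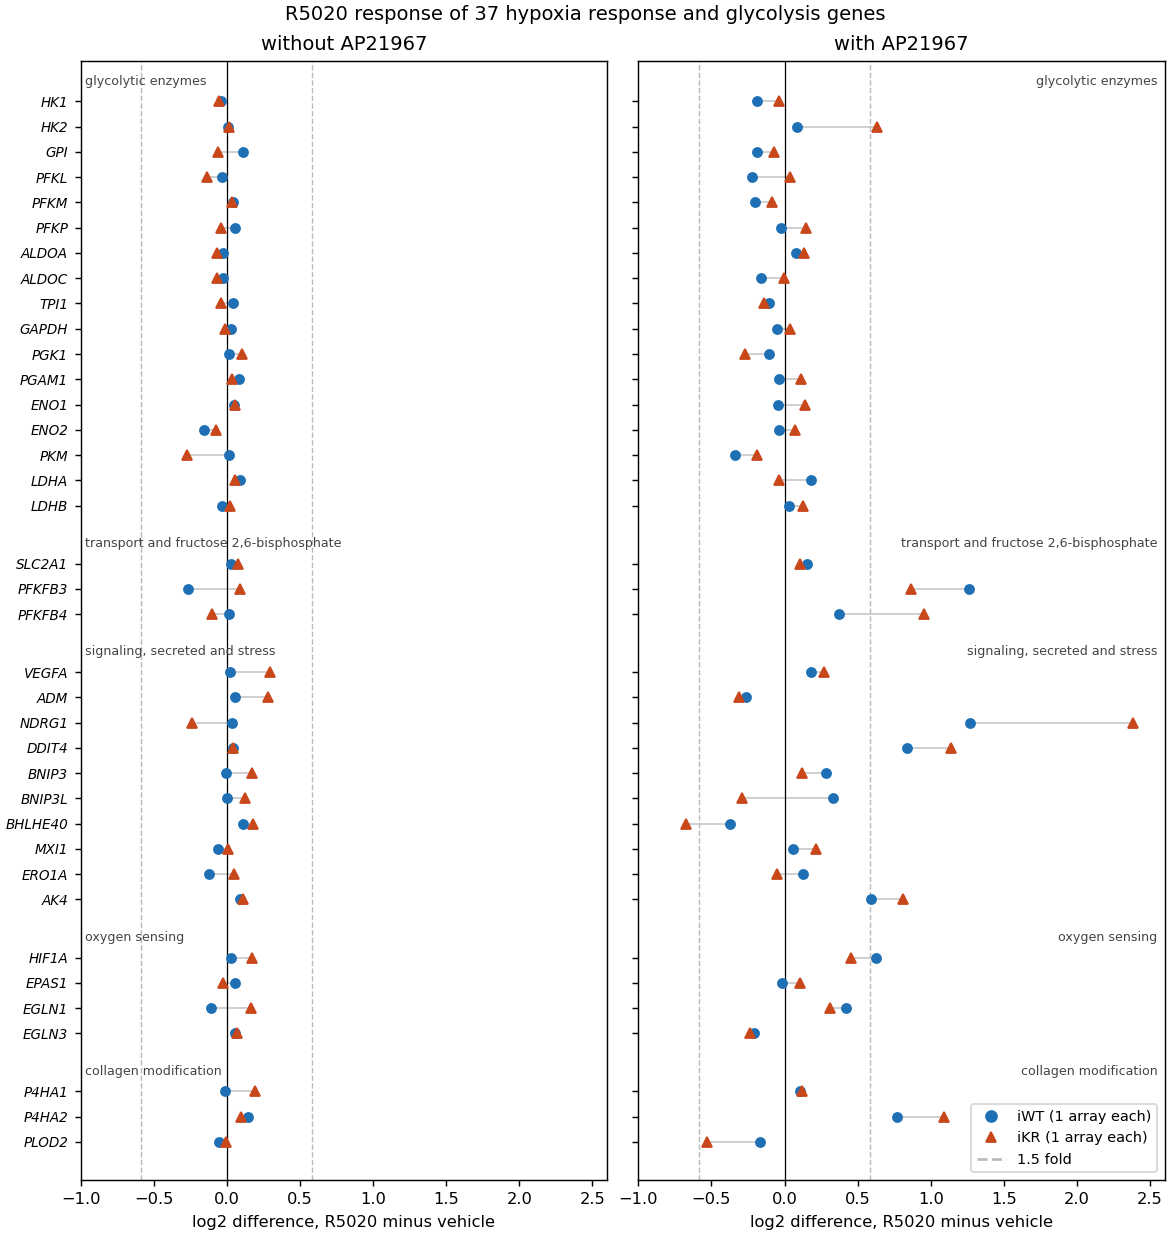
Log2 difference between the R5020 and the vehicle array for each of the 37 genes, ordered by role, without AP21967 (left) and with it (right), for iWT (circles) and iKR (triangles), 1 array per condition, with dashed lines at 1.5 fold. Without AP21967 all points lie between -0.27 and 0.30. With it, NDRG1, PFKFB3, DDIT4, P4HA2 and AK4 lie past 1.5 fold in both iWT and iKR. Of the 17 glycolytic enzymes, 16 stay inside it, as do most genes tested.

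The 17 glycolytic enzymes carry glucose to pyruvate and lactate. With AP21967 their R5020 differences had a median of -0.05 in iWT, from -0.34 to 0.18, and of 0.03 in iKR, from -0.27 to 0.63, beside medians of -0.02 and 0.03 over all genes tested. In limma 0 of the 17 were called, both for the inducer-dependent response (2.1% of all genes, in either direction) and for R5020 with AP21967 (11.5%), and the 95% intervals of the latter ran from -0.47 at the lowest bound to 0.63 at the highest. Of the 611 genes on the array with a mean of log2 12 or above, 6 lay past 1.5 fold upward in each line, and 0 in iWT and 10 in iKR lay past it downward.

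LDHA, lactate dehydrogenase A and a standard HIF-1 target, lay at 13.10 in iEV and 13.12 with AP21967. In iWT it measured 12.62 in vehicle, 12.71 with R5020, 12.73 with AP21967 and 12.91 with both, and in iKR 12.86, 12.91, 12.96 and 12.93 in the same order. All 8 arrays of the receptor lines were below both iEV arrays, and its inducer-dependent difference was -0.00 ± 0.12 (SE). PGK1, phosphoglycerate kinase, measured 12.90 in iKR with AP21967 and 12.63 with both agents, for an R5020 effect with AP21967 of -0.19 (SE 0.08, limma adjusted p = 0.18). PKM, pyruvate kinase, measured 12.96 in iWT with AP21967 and 12.62 with both agents, and in iKR 13.14 and 12.96, beside 13.17 and 12.90 without AP21967, for a shared effect with AP21967 of -0.26 (SE 0.09, limma adjusted p = 0.11).

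HK2, the inducible hexokinase that starts glycolysis, was the only enzyme of the 17 past 1.5 fold, and only in iKR. It measured 9.37 and 9.33 in iEV, 9.60, 9.61, 9.64 and 9.73 in iWT (vehicle, R5020, AP21967, both) and 9.38, 9.39, 9.42 and 10.05 in iKR. The iKR array with both agents thus stood above the other 9, at a difference of 0.63 (1.55 fold) against 0.08 in iWT. The inducer-dependent value was 0.35 (SE 0.17, limma adjusted p = 0.39). It was 0.62 without either iWT array with AP21967 and 0.074 without either iKR array with AP21967. Either value then rests on the R5020 difference of 1 line with AP21967, so only its size is given. A dimmer probe set of HK2 gave 0.23 in iWT and 0.19 in iKR.

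The bifunctional enzymes PFKFB3 and PFKFB4 set the level of fructose 2,6-bisphosphate, the strongest activator of phosphofructokinase, and so the rate of glycolysis. PFKFB3 measured 8.03 and 8.17 in iEV, 7.88, 7.62, 7.93 and 9.20 in iWT (vehicle, R5020, AP21967, both) and 7.77, 7.86, 7.84 and 8.70 in iKR. Only the arrays with both agents were high, 2.40 fold over vehicle in iWT and 1.82 fold in iKR, and the inducer-dependent response was 1.15 (SE 0.17, limma adjusted p = 0.011).

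PFKFB4 measured 7.46 and 7.43 in iEV, 7.57, 7.58, 7.43 and 7.80 in iWT and 7.47, 7.37, 7.40 and 8.35 in iKR. The arrays with both agents were again the highest of each line, with 1.29 fold in iWT and 1.94 fold in iKR. Its R5020 effect with AP21967 was 0.66 (SE 0.13, limma adjusted p = 0.011), while the inducer-dependent response of 0.71 (SE 0.18) missed the threshold (adjusted p = 0.089). That response was 1.00 without either iWT array with AP21967 and 0.41 without either iKR array with AP21967, each resting on 1 line with AP21967. SLC2A1, the glucose transporter GLUT1, differed by 0.15 in iWT and 0.10 in iKR and was not called.

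Among the 10 measured signaling, secreted and stress genes, 3 were called higher (1.41% of all genes tested) and 1 lower (0.687%) for the inducer-dependent response. NDRG1, a stress-induced differentiation gene that is raised by hypoxia in many cells, had the largest difference of the 37. It measured 9.97 and 9.98 in iEV, 9.49, 9.52, 9.39 and 10.66 in iWT (vehicle, R5020, AP21967, both) and 9.53, 9.29, 9.33 and 11.71 in iKR. The 6 receptor-line arrays lacking 1 or both agents were below iEV, and the 2 with both were above it. The difference with AP21967 was 2.41 fold in iWT and 5.23 fold in iKR, and the inducer-dependent response 1.93 (SE 0.29, limma adjusted p = 0.014).

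DDIT4 (REDD1), an inhibitor of mTORC1 signaling in stressed cells, measured 10.51 and 10.53 in iEV, 10.34, 10.38, 10.34 and 11.18 in iWT and 10.13, 10.17, 10.10 and 11.24 in iKR. The arrays with both agents were the highest in each line, 1.79 and 2.20 fold over vehicle, and the response was 0.95 (SE 0.13, limma adjusted p = 0.008). AK4, a mitochondrial adenylate kinase, measured 10.92 and 10.95 in iEV, 10.62, 10.71, 10.69 and 11.28 in iWT and 10.41, 10.52, 10.35 and 11.16 in iKR. It rose by 0.60 (SE 0.12, limma adjusted p = 0.041), a call lost without any 1 of the 4 arrays lacking AP21967 (adjusted p of 0.20 or 0.21). Its dimmer probe set gave R5020 differences with AP21967 of 0.90 in iWT and 0.68 in iKR.

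BHLHE40 (DEC1), a transcriptional repressor of the circadian clock and of hypoxic cells, moved in the opposite direction. It measured 10.44 and 10.61 in iEV, 10.23, 10.34, 10.35 and 9.97 in iWT and 9.77, 9.95, 9.77 and 9.10 in iKR. The array with both agents was the lowest of each line, and the response fell by 0.66 on the log2 scale (SE 0.13, limma adjusted p = 0.039), a call lost without any 1 of the 4 arrays lacking AP21967 (adjusted p of 0.12 or 0.20). A dimmer probe set of the gene gave R5020 differences with AP21967 of -0.09 in iWT and -0.11 in iKR, and with the mean of both probe sets the response was -0.45 (adjusted p = 0.089).

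The secreted genes of the list were not called. VEGFA, the vascular growth factor, had R5020 differences with AP21967 of 0.18 in iWT and 0.27 in iKR, beside 0.02 and 0.30 without AP21967, and an inducer-dependent value of 0.07 (SE 0.13, limma adjusted p = 0.89). Its 3 dimmer probe sets differed with AP21967 by -0.11 to 0.19 in iWT and 0.30 to 0.40 in iKR, and without it by 0.02 to 0.15 in iWT and -0.07 to -0.02 in iKR, so that in iKR only the brightest gave a like difference without the inducer. ADM, the vasodilator peptide adrenomedullin, differed with R5020 and AP21967 by -0.27 in iWT (9.55 and 9.28) and -0.31 in iKR (10.20 and 9.89), with an inducer-dependent value of -0.45 (SE 0.12, limma adjusted p = 0.10). BNIP3, BNIP3L, MXI1 and ERO1A, which act in mitochondrial removal, in opposition to MYC and in disulfide formation, had inducer-dependent values from -0.04 to 0.16 and were not called.

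**Figure D2:**
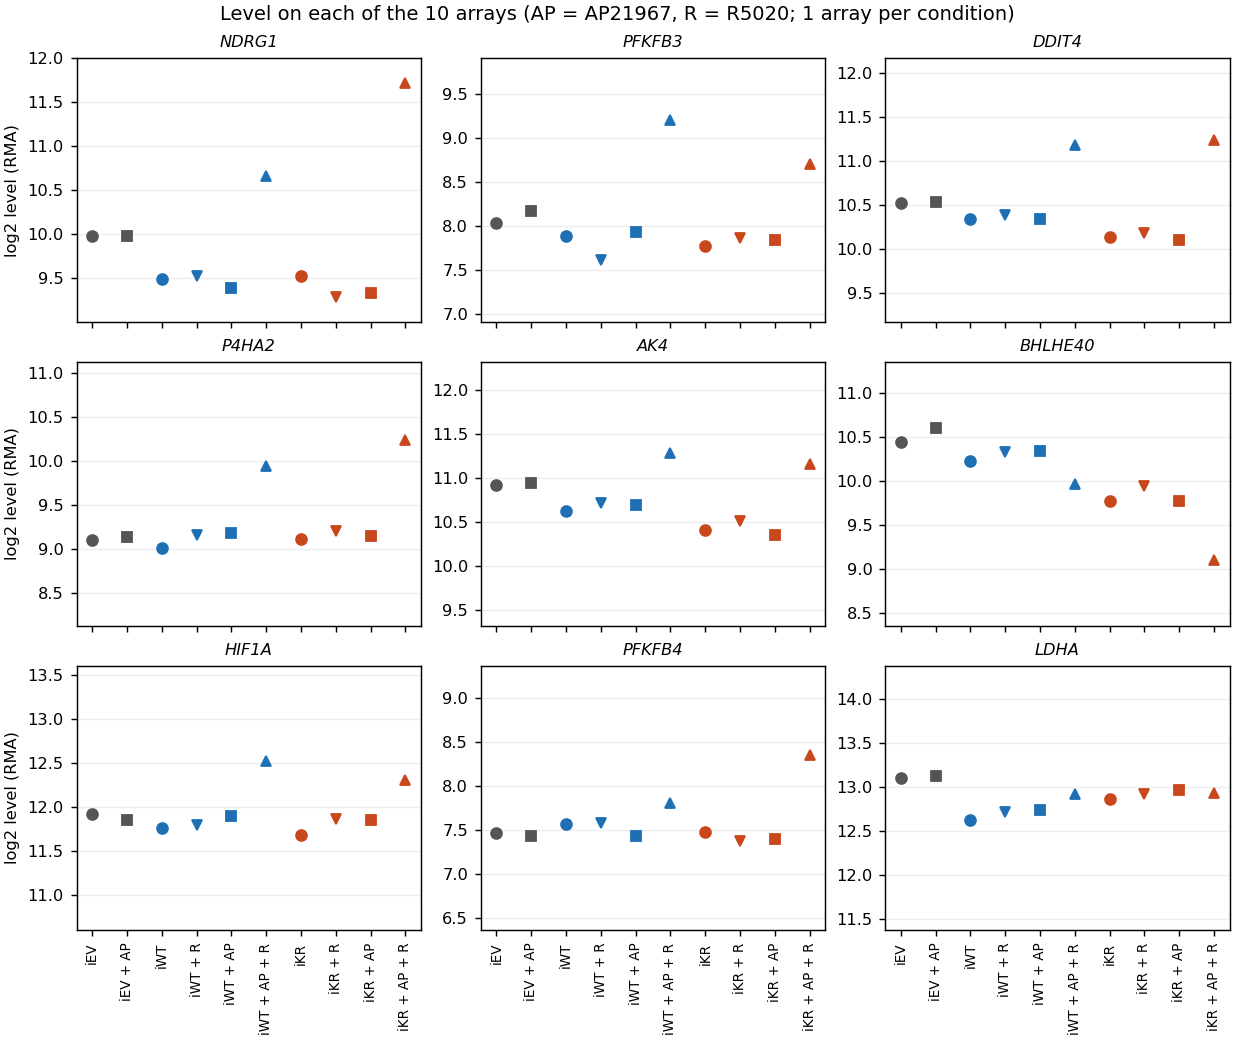
Log2 level on each of the 10 arrays for the 6 genes called for the inducer-dependent R5020 response, for HIF1A and PFKFB4, and for the enzyme LDHA, with iEV in grey, iWT in blue and iKR in orange, each axis spanning 3 log2 units. In the first 5 panels and in those of HIF1A and PFKFB4 the arrays with AP21967 and R5020 are the highest of their line, in BHLHE40 they are the lowest, and LDHA lies between 12.62 and 13.12 on all arrays.

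Of the oxygen-sensing genes, HIF1A measured 11.92 and 11.86 in iEV, 11.77, 11.80, 11.90 and 12.52 in iWT and 11.69, 11.86, 11.85 and 12.31 in iKR. Both arrays with AP21967 and R5020 were above the other 8, at 1.54 fold over vehicle in iWT and 1.37 fold in iKR. The R5020 effect with AP21967 was 0.54 (SE 0.08, limma adjusted p = 0.0045) and the inducer-dependent response 0.44 (SE 0.12, adjusted p = 0.11). EGLN1, the main prolyl hydroxylase that targets HIF-1 alpha, rose with R5020 in the presence of AP21967 by 0.37 (SE 0.09, limma adjusted p = 0.032), from 8.77 to 9.19 in iWT and from 8.94 to 9.26 in iKR. Without AP21967 its R5020 differences were -0.11 in iWT and 0.17 in iKR. The inducer-dependent response of EGLN1 was 0.34 (SE 0.13, limma adjusted p = 0.26) and was not called. EGLN3, the hydroxylase most induced by hypoxia in many cells, differed by -0.21 in iWT and -0.24 in iKR (shared effect -0.22, SE 0.08, limma adjusted p = 0.095), and EPAS1 by -0.02 and 0.11. The dimmer probe set of EPAS1 gave 0.26 in iWT and 0.41 in iKR, beside 0.18 and -0.09 without AP21967.

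The 3 collagen-modifying enzymes diverged. P4HA2, a collagen prolyl 4-hydroxylase subunit, measured 9.10 and 9.14 in iEV, 9.01, 9.16, 9.18 and 9.95 in iWT and 9.11, 9.21, 9.15 and 10.24 in iKR. It was level on the 8 arrays lacking 1 or both agents and 1.71 and 2.13 fold over vehicle with both, for a response of 0.81 (SE 0.13, limma adjusted p = 0.019), a call lost without either iKR array lacking AP21967 (adjusted p = 0.069). Its paralog P4HA1 differed by 0.11 in iWT and 0.12 in iKR. PLOD2, the lysyl hydroxylase that shapes collagen cross-links, differed by -0.17 in iWT and -0.53 in iKR (shared effect -0.35, SE 0.10, limma adjusted p = 0.052), and a dimmer probe set gave 0.02 and 0.11.

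Counted by order alone, 12 of the 37 genes had both arrays with AP21967 and R5020 above the other 6 arrays of the receptor lines (14.4% of all genes tested) and 3 had both below (12.1%). The 12 held all 3 measured genes of transport and fructose 2,6-bisphosphate, 3 of 10 signaling, secreted and stress genes, 2 of 4 oxygen-sensing genes, 2 of 3 collagen-modifying enzymes and 2 of 17 glycolytic enzymes. 

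The promoter letters of genes that were called and of others that were not are shown for comparison, since both kinds hold the HIF core. RefSeq windows from 250 bases before to 50 bases after the start (GRCh38.p14, the first listed start of each gene) matched 34 of the 37 genes, without VEGFA, NDRG1 and BNIP3L. On either strand, ACGTG was found in 16 of the 34 windows (47.1%) and in 25.3% of 8767 windows of tested genes, and GCGTG in 19 (55.9%) and 47.7%. A palindromic CACGTG counts on both strands. At least 1 of these cores lay in 26 of the 34 windows (76.5%) and in 60% of those of tested genes. It lay in 4 of the 5 matched genes called for the inducer-dependent response, all but P4HA2, in 22 of the 29 not called for it, PFKFB4 among them, and in 12 of the 17 glycolytic enzymes. TGTTCT, the half-site of steroid receptors, was found in 5 of 34 windows (14.7%, beside 9.84%), those of ADM, ALDOA, BHLHE40, GPI and MXI1. These are 1 of the 5 matched genes called for the inducer-dependent response and 4 of the 29 not called. The full palindromic steroid response element was found in 0 of 34 (0.274% of tested genes). A match is a description of letters and not a site in use. Below are stretches before the start of 3 genes called for R5020 with AP21967 and of 3 enzymes that were not, in lower case with the ACGTG and GCGTG cores of either strand in capitals, 5′ to 3′ on the strand of the gene.
DDIT4, higher with R5020 and AP21967, chr10:72273690-72273890, plus strand: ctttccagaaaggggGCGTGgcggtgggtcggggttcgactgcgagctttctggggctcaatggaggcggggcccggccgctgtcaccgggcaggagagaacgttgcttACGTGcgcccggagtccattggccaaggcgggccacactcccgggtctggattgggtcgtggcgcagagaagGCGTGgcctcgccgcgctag
BHLHE40, lower, chr3:4979187-4979307, plus strand: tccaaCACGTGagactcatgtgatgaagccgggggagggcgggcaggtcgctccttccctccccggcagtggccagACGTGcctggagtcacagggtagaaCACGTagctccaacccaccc
PFKFB4, higher with R5020 and AP21967 but not called for the inducer-dependent response, chr3:48556950-48556984, minus strand: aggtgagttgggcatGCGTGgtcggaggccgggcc
LDHA, not called, chr11:18394363-18394509, plus strand, the first of 2 listed starts: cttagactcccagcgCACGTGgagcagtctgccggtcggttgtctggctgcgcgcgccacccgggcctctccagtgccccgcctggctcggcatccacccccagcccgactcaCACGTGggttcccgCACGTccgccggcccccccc
PGK1, not called, chrX:78104022-78104084, plus strand: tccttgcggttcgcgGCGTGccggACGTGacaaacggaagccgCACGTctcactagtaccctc
ENO1 (enolase 1), not called, chr1:8878739-8878867, minus strand: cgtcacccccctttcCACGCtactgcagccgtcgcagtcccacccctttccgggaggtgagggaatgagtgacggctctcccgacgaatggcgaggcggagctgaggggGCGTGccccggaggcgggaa

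Whether the SUMO-deficient receptor gave a larger response than the wild type can be described but not tested, with 1 array per condition. The level of PGR differed too. With AP21967 it was 12.08 in iKR and 11.34 in iWT in vehicle, and 11.38 and 11.89 with R5020. Its part in the values below was not tested. The iKR difference exceeded the iWT difference by more than 1.5 fold for 2 of the 37 genes (1.03% of all genes tested), NDRG1 by 1.12 and PFKFB4 by 0.59, and fell short of it for 1 (1.48%), BNIP3L, by -0.63. HK2 was just inside that limit at 0.55. BNIP3L measured 10.66 and 11.00 in iWT and 10.92 and 10.62 in iKR (AP21967 alone, then with R5020), and its dimmer probe set gave R5020 differences of 0.34 and 0.17, of one sign. For PFKFB3 the iKR difference was the smaller one, by -0.40, and for DDIT4, P4HA2 and AK4 it was larger by 0.30, 0.32 and 0.22. As a scale for these values, the iKR difference minus the iWT difference had a median size of 0.16 over the 37 genes. Over all genes tested it was 0.15. AP21967 without R5020 moved the 37 genes by a median of 0.04 to 0.07 in size in the 3 lines. The largest such move was 0.34 in size (ADM in iEV). Those moves compare single arrays, whereas the values above are differences between such differences, so the moves are too small a scale for them.

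Without R5020, 20 of the 37 genes were called different from the empty-vector line in each receptor line, mostly lower, with ADM far higher and EPAS1 and BNIP3 the most lowered. A limma fit over the 6 vehicle arrays, with a term for AP21967, called 18 of the 37 lower in iWT than in iEV (11.8% of all genes tested) and 2 higher (12%). For iKR against iEV it called 17 lower (12.8%) and 3 higher (12.9%). Both comparisons share the iEV arrays. AP21967 itself, as an effect common to the lines, called 0 genes of the whole array in limma (0% in either direction), with 981 at an unadjusted p under 0.05, 2 of the 37 among them. Without the iWT array with AP21967 the iWT count was 7 and without the other iWT array 9, without the iEV array with AP21967 it was 11 and without the other 13, and without either iKR array the iKR count was 13.

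**Figure D3:**
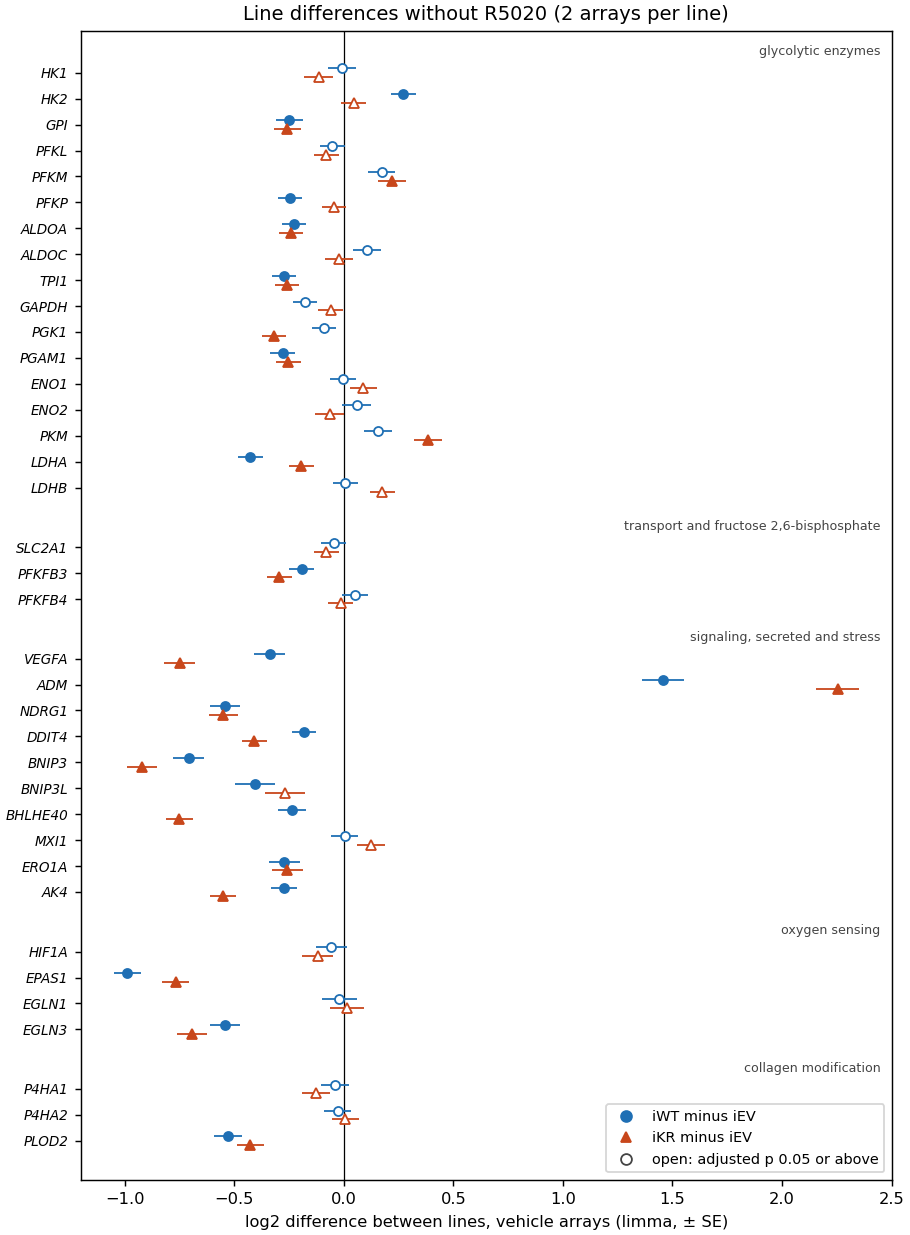
Log2 difference from iEV on vehicle arrays (limma, bars are ± 1 SE, 2 arrays per line) for each of the 37 genes by role, iWT as circles and iKR as triangles, filled where the adjusted p was under 0.05. ADM stands alone at 1.46 and 2.25, and BNIP3, EPAS1, BHLHE40 and VEGFA in iKR lie farthest to the left, at -0.92, -0.77, -0.75 and -0.75, with EPAS1 in iWT at -0.99.

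Of the signaling, secreted and stress genes, 8 of 10 were called lower in iWT (11.8% of all genes tested) and 7 of 10 in iKR (12.8%). BNIP3, an outer mitochondrial membrane protein of mitophagy, measured 11.28 and 11.24 in iEV (without and with AP21967), 10.52 and 10.58 in iWT and 10.24 and 10.44 in iKR vehicle arrays. It was lower by -0.71 in iWT and -0.92 in iKR (SE 0.07 each, limma adjusted p = 0.00038 and 9.9e-05). VEGFA was lower by -0.34 (adjusted p = 0.012) and -0.75 (adjusted p = 0.00029), with levels of 10.37 and 10.56 in iEV, 10.14 and 10.11 in iWT and 9.73 and 9.70 in iKR, and all 3 of its dimmer probe sets were lower in both lines too. NDRG1 was lower by -0.54 and -0.55 (SE 0.07 each, limma adjusted p = 0.001 and 0.00093), so that the gene most raised by R5020 began below the empty-vector level.

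BHLHE40 was lower by -0.24 in iWT and -0.75 in iKR, AK4 by -0.27 and -0.55, and DDIT4 by -0.18 and -0.41, each called in both lines (limma adjusted p from 0.00015 to 0.05). ERO1A was lower by -0.27 and -0.26, and BNIP3L by -0.40 in iWT and -0.27 in iKR, the latter not called (adjusted p = 0.069). MXI1 was called in neither. The calls of DDIT4 in iWT, PFKFB3 in iWT and LDHA in iKR were each lost without any 1 of the 6 arrays. That of ERO1A was lost in 4 of these 6 cases in iKR and in 2 in iWT. In iWT those of BHLHE40, AK4 and BNIP3L were lost in 3 and that of VEGFA in 2.

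ADM was the exception. It measured 8.21 and 7.87 in iEV, 9.45 and 9.55 in iWT and 10.39 and 10.20 in iKR (without and with AP21967), and no array of one line overlapped those of another. The difference from iEV was 1.46 in iWT (2.75 fold, SE 0.10, limma adjusted p = 6.3e-05) and 2.25 in iKR (4.77 fold, SE 0.10, adjusted p = 5.7e-06), and iKR was above iWT by 0.80 (adjusted p = 0.0053).

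In oxygen sensing, EPAS1 (HIF-2 alpha) measured 10.66 and 10.66 in iEV, 9.60 and 9.75 in iWT and 9.87 and 9.91 in iKR. It was lower by -0.99 and -0.77 (SE 0.06 each, limma adjusted p = 4.9e-05 and 0.00013), and its dimmer probe set gave -0.78 and -0.62. EGLN3 measured 7.31 and 7.29 in iEV, 6.68 and 6.83 in iWT and 6.51 and 6.71 in iKR, lower by -0.54 and -0.69 (limma adjusted p = 0.0011 and 0.00034). These low levels lay within the range of the measured leukocyte markers, 6.02 to 8.29. HIF1A and EGLN1 differed from iEV by -0.12 to 0.01 and were not called. PLOD2 was lower by -0.53 and -0.43 (limma adjusted p = 0.00087 and 0.0024), whereas P4HA1 and P4HA2 were not called.

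The glycolytic enzymes differed less from iEV than the signaling, secreted and stress genes, but more than the typical gene. Of the 17, 6 were called lower for iWT (11.8% of all genes tested) and 6 for iKR (12.8%). Called higher were 1 for iWT (12%) and 2 for iKR (12.9%). GPI, ALDOA, TPI1, PGAM1 and LDHA were lower in both, by -0.23 to -0.43 in iWT and -0.19 to -0.26 in iKR. PFKP, the platelet phosphofructokinase, was called lower in iWT (-0.25, limma adjusted p = 0.015, beside -0.05 in iKR) and PGK1 in iKR (-0.32, adjusted p = 0.0049, beside -0.09 in iWT). HK2 was higher in iWT by 0.27 (adjusted p = 0.012), and PKM and PFKM, the muscle phosphofructokinase, in iKR by 0.38 (adjusted p = 0.004) and 0.22 (adjusted p = 0.036). The dimmer probe set of PKM gave 0.12. The dimmest of TPI1 gave -0.10 in iWT and -0.14 in iKR, and another -0.23 and -0.26. With each of the 6 arrays left out in turn, the call of PFKM was lost in 5 cases. Those of PFKP and ALDOA in iWT were lost in 4. Those of GPI and PGAM1 in each line, ALDOA in iKR and HK2 were lost in 3, and those of TPI1 in 2. PKM, PGK1 and LDHA in iWT kept theirs in all 6. The median over the 17 enzymes was -0.05 in iWT and -0.06 in iKR, against -0.27 and -0.48 over the 10 signaling, secreted and stress genes and 0.01 and 0.00 over all genes tested. Taken without sign, the median difference of the enzymes was 0.17 in iWT and 0.18 in iKR. It was 0.31 and 0.55 over the signaling, secreted and stress genes and 0.10 and 0.11 over all genes tested. PFKFB3 was lower by -0.19 (adjusted p = 0.046) and -0.30 (adjusted p = 0.0078), and SLC2A1 and PFKFB4 were not called.

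Directly between the receptor lines, limma called 1 gene higher in iKR than in iWT (2.91% of all genes tested), ADM, and 3 lower (2.11%), BHLHE40 by -0.51 (SE 0.06, adjusted p = 0.0053), VEGFA by -0.41 (SE 0.07, adjusted p = 0.02) and AK4 by -0.28 (SE 0.06, adjusted p = 0.041). No glycolytic enzyme was called, with differences from -0.23 to 0.23. This count was 1 without either iWT array or the iKR array with AP21967, 2 without the other iKR array, and 14 with a prior that follows the mean level.

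**Figure D4:**
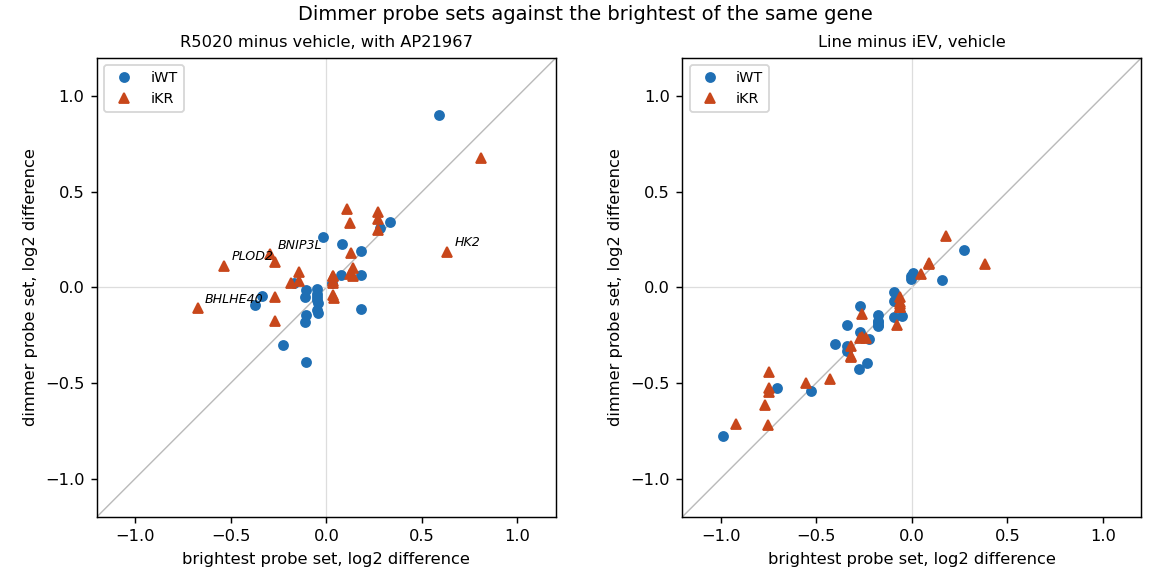
Log2 differences of 26 dimmer probe sets with a mean of log2 6 or above (vertical) against the brightest probe set of the same gene (horizontal), for R5020 with AP21967 (left) and for the lines against iEV (right), iWT as circles and iKR as triangles, with the line of equality. For R5020 in iKR the points farthest from that line are PLOD2, BHLHE40, BNIP3L, HK2 and PGK1, off it by 0.65, 0.56, 0.47, 0.45 and 0.40. The farthest among the line differences are VEGFA in iKR, by 0.30, and PKM in iKR, by 0.26.

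In all, 17 of the 37 genes had more than 1 probe set, with 27 dimmer ones, so these genes could be read again at another part of the transcript on the same RNA. The other 20 rest on 1 probe set each, among them NDRG1, PFKFB3, PFKFB4, DDIT4, P4HA2, HIF1A and ADM. EGLN1, EGLN3, ERO1A, GPI, LDHA, PFKM, PFKP and PGAM1 do so too. The probe set of EGLN1 has the suffix _x_at and may read several transcripts. In GAPDH, 5 dimmer probe sets gave R5020 differences with AP21967 from -0.12 to -0.01 in iWT and -0.04 to 0.06 in iKR, beside -0.05 and 0.03 for the brightest.

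Beyond these genes, 56 others of the same pathways were tested: 6 of oxygen sensing, 27 further hypoxia targets and 23 of sugar metabolism. For the inducer-dependent response, 0 were called higher (1.41% of all genes tested) and 2 lower (0.687%), CITED2, an inhibitor of HIF-1 that competes for its coactivator, by -0.77 (SE 0.15, limma adjusted p = 0.04) and BPGM, the bisphosphoglycerate mutase, by -0.69 (SE 0.14, adjusted p = 0.041). CITED2 differed with R5020 and AP21967 by -0.74 in iWT and -1.15 in iKR. For R5020 with AP21967 alone, 3 were higher (5.23%), PDK1, KDM4B and JMJD6 by 0.35, 0.42 and 0.30, and 7 were lower (6.25%), among them INSIG2 by -0.84 and CXCR4 by -0.36. Against iEV, iWT had 6 of them higher (12%) and 14 lower (11.8%), iKR 7 (12.9%) and 15 (12.8%), with CXCR4 the most lowered (-1.53 and -1.91) and RORA the most raised (0.82 and 0.94).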

How the data were processed

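Levels are the log2 values deposited by the authors, who normalized the raw arrays with the Robust Multi-array Average in R (packages affy and affyQCReport), which removes background, brings all arrays to one distribution and summarises each probe set. Sources differ on the RNA extraction reagent and on how doses are written, so neither is given. Of 22277 probe sets, 19070 name 1 gene in the platform annotation, 1043 several and 2164 none, and symbols were checked against RefSeq through gene identifiers. Per gene, the single-gene probe set with the highest mean was kept, and genes reaching log2 6 on at least 1 array were tested. limma 3.58.1 (R 4.3.3) was run with lmFit and eBayes, and Benjamini-Hochberg adjustment over all genes tested, with a threshold of 0.05. The R5020 fit held 8 arrays and 6 parameters, the line fit 6 arrays and 4 parameters. Both were run on simulated data with independent noise on each array and, for R5020, the same response in both receptor lines. That setting cannot show how the fits behave where the lines respond unequally or where clones differ. Genes with statistics are those called in a fit or past 1.5 fold. Members and gene lists were chosen with earlier results of these data known. Alternatives changed the probe set rule, scaling, level filter, prior, arrays used and fold threshold. The number of arrays limits the precision.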

Additional observations from a re-analysis of the deposited data

Results flagged for a closer look

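Differences between conditions set 6 genes apart, those whose R5020 response with AP21967 was called different from that without it: NDRG1 (1.93), PFKFB3 (1.15), DDIT4 (0.95), P4HA2 (0.81), AK4 (0.60) and BHLHE40 (-0.66), all on the log2 scale.

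For 10 genes the R5020 difference with AP21967 had opposite signs in iWT and iKR, on 1 array per condition, and the difference between the lines was not tested. Taken as iKR minus iWT it was 0.26 for PFKL, 0.17 for PFKP, 0.085 for GAPDH, 0.16 for PGAM1, 0.18 for ENO1, 0.11 for ENO2, -0.22 for LDHA, -0.63 for BNIP3L, -0.18 for ERO1A and 0.13 for EPAS1. BNIP3L alone of the 10 was past 1.5 fold, and the sign of its iKR value differed between its probe sets.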

How the results depend on the processing

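No paired analysis was possible because every condition has 1 array and all carry the same replicate number, so that arrays of the receptor lines could be matched by condition only (the block given below). Without probe sets of the suffixes _x_at and _s_at, which may read several transcripts, only 19 of the 37 genes could be tested: 2 were called for the inducer-dependent response in place of 6, 8 for iWT minus iEV in place of 20, 6 for iKR minus iEV in place of 20, 2 for iKR minus iWT in place of 4, and 5 were past 1.5 fold for R5020 in place of 9. At 2.0 fold, 4 genes remained for R5020 and 1, NDRG1, for the difference between the lines. The iKR minus iWT count was 8 with a mean of log2 7 or above, 14 with a trend and robust prior, 14 with a trend prior, which was chosen after seeing the data, and 7 over 8 arrays with matched conditions as a block. Leaving out 1 array gave 3 to 10 calls for the inducer-dependent response, 7 to 18 for iWT minus iEV, 13 to 18 for iKR minus iEV and 1 to 5 for iKR minus iWT. For single genes, NDRG1 kept its size but not its call with the trend and robust prior (adjusted p = 0.19), and BHLHE40 lost its call with the mean of probe sets and with cyclic loess (adjusted p = 0.084). PFKFB3 and DDIT4 kept their inducer-dependent calls under every alternative that could read them, with values of 0.95 to 1.35 and of 0.80 to 1.10. The near-zero inducer-dependent value of BNIP3L (-0.04) reversed to 0.10 with the mean of probe sets, to 0.020 for R5020 with AP21967 alone, and to 0.016 and 0.27 without an iKR array lacking or holding AP21967, in a range of -0.35 to 0.27 over the arrays left out. The cause of these shifts was not tested.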
